A study of Mus musculus with 2 samples.

Results

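The chemokine receptors of leukocytes were followed across cell types and treatment groups in 2 droplet single-cell RNA libraries. The members were the gene rows of both matrices with the symbols Cxcr2, Cxcr4, Ccr1, Ccr2, Ccr7, Cxcr3, Cxcr5, Cxcr6, Cx3cr1 and Ccrl2, which are 10 of 32285 gene rows. All 10 had UMIs in both libraries, where a UMI (unique molecular identifier) marks 1 captured RNA molecule. Another 15 receptors of the same kind, including the atypical receptors, served as a list for comparison.

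Chemokines are small secreted proteins that form gradients along which leukocytes move, and their receptors cross the cell membrane and couple to inhibitory G proteins. Which receptor a leukocyte carries depends on its type and its stage. Neutrophils leave the bone marrow and reach inflamed tissue through Cxcr2, whose ligands are Cxcl1, Cxcl2 and their relatives, while Cxcr4 and its ligand Cxcl12 hold them in the marrow. Classical monocytes leave the marrow through Ccr2, naive T cells enter lymph nodes through Ccr7, and B cells enter follicles through Cxcr5. In the liver, Cxcr6 is known from resident T and NK cells that bind Cxcl16 on the sinusoid wall.

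The cells came from BALB/cAnNCrl mice that carried liver metastases of 4T1, a mouse mammary carcinoma line, and that were given vehicle or CBL0137 at a dose labelled low or high. CBL0137 is a curaxin that binds DNA and acts on the histone chaperone FACT. All 3 groups carried the tumor, so the vehicle group is a tumor-bearing control and not a healthy one. The hashtags A0301, A0305 and A0310 (antibodies with a DNA tag) mark vehicle, low dose and high dose cells within each library, and the animals of a group were pooled. The labels describe leukocytes of liver and spleen from a density gradient, whereas the methods name a selection for CD11b, a myeloid surface protein. Both libraries held T cell-like and B cell-like cells.

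The liver-labelled library held 9591 barcodes, of which 8435 carried 1 hashtag (3103 vehicle, 3194 low dose and 2138 high dose). The spleen-labelled library held 4830 barcodes, of which 2988 carried 1 hashtag (822, 1301 and 865 in the same order), and 15 barcodes occurred in both. Summed UMIs of a group were 17333148 to 26508853 in the first library and 7130127 to 10589251 in the second. Tissue markers went against the labels. Clec4f, which marks Kupffer cells of the liver, had 0 UMIs in the liver-labelled library and 3520 in the spleen-labelled library. The summed hepatocyte markers were at 0.0728 and 93.3 counts per 1000000 UMIs (CPM), the Kupffer cell list at 15.2 and 637 CPM, and the list for splenic B cells and macrophages at 146 and 37.6 CPM, in the same order. The spleen-labelled library thus carried more of the liver markers, and the liver-labelled library more of the splenic list. Each library is called by its label throughout, and the label is not taken as the tissue its cells came from. Every group was 1 pooled sample in each library, so the spread between animals is unknown and no test was possible. The 95% intervals below are exact Poisson intervals for a level and exact conditional binomial intervals for a ratio, and both cover counting error only. A level is called higher or lower where the interval of its ratio leaves out 0 on the log2 scale.

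The class that held the most UMIs was the same in both libraries for Cxcr2, Ccr1, Ccr2, Cxcr3 and Cxcr5. It differed for Cxcr4, Ccr7, Cxcr6, Cx3cr1 and Ccrl2. For all of these but Cx3cr1, cells left without a type name came first in 1 of the libraries. Cells were clustered without the 10 receptors, and a cluster was called after a cell type, with the ending -like, only from markers that hold no chemokine receptor. In the liver-labelled library, neutrophil-like cells held 81.0% of the 20356 Cxcr2 UMIs and 71.9% of the 12586 Ccr1 UMIs, monocyte-like cells 59.7% of the 7955 Ccr2 UMIs, T cell-like cells 80.9% of the 4252 Ccr7 UMIs, and B cell-like cells 85.1% of the 644 Cxcr5 UMIs. Among spleen-labelled cells, neutrophil-like cells held 94.1% of the 3439 Cxcr2 UMIs and 62.5% of the 3614 Ccrl2 UMIs, and macrophage-like cells 70.8% of the 1131 Cx3cr1 UMIs. Among all gene rows ordered by UMIs, Cxcr2 ranked 340 and 1019, Ccr1 585 and 666, Ccr2 953 and 552, and Cxcr5 7236 and 11495 in the libraries labelled liver and spleen. Even so, 1 cell could hold up to 79 UMIs of Ccr2 and up to 41 of Cxcr2. The 4T1 tumor cell-like cluster (82 cells, all in the spleen-labelled library) had each receptor at 7.91 CPM or less, with Cxcr3 the highest.

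**Figure D1:**
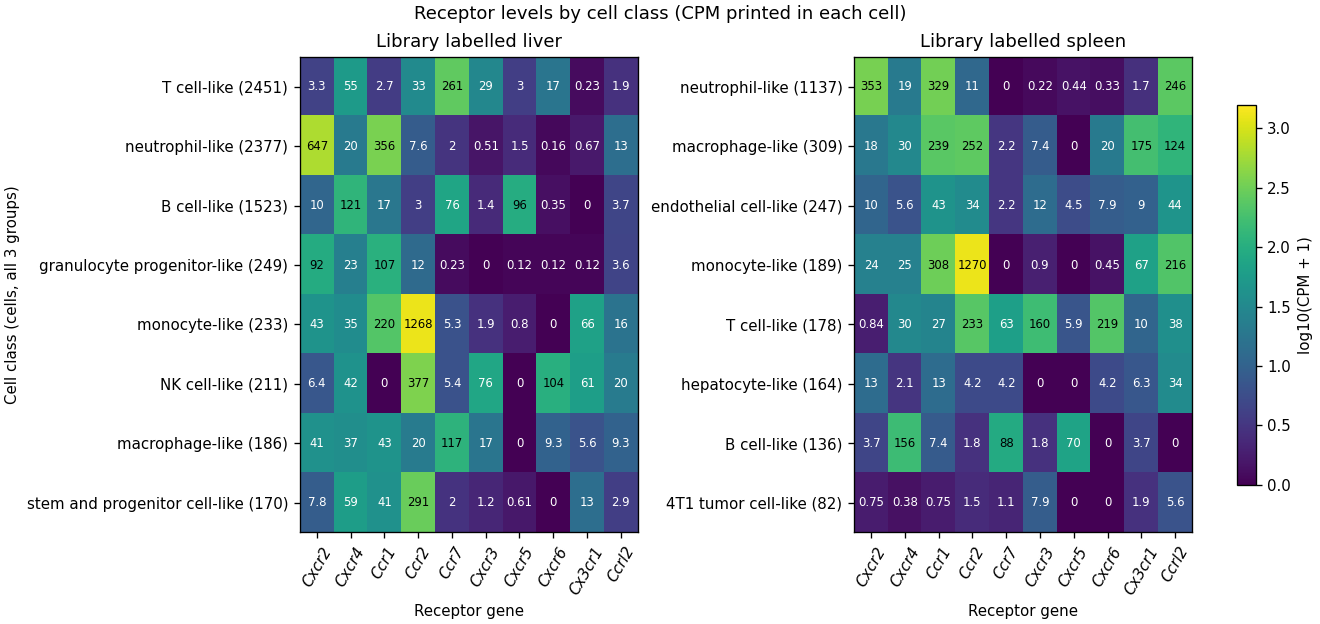
Level of each of the 10 receptors (columns) in each cell class (rows, with the number of cells over the 3 groups) of both libraries, in CPM of the summed UMIs, with colour as log10(CPM + 1). Cxcr2 had its highest level in neutrophil-like cells (647 CPM labelled liver, 353 labelled spleen), Ccr2 in monocyte-like cells (1268 and 1269.7) and Cxcr4 in B cell-like cells among classes of over 100 cells (121 and 156).

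The order of the classes was read for each receptor over all groups. Cxcr2 was at 647 CPM (637.5 to 657) in liver-labelled neutrophil-like cells, 92.3 in granulocyte progenitor-like, 43.0 in monocyte-like and 40.8 in macrophage-like cells. Ccr1, by contrast, was shared between myeloid classes, at 356 CPM in neutrophil-like, 219.6 in monocyte-like and 107 in granulocyte progenitor-like cells. Among spleen-labelled cells Ccr1 was at 329 in neutrophil-like and 308 in monocyte-like cells, whose intervals overlapped, and at 239 CPM in macrophage-like cells. Ccr2 reached lymphoid cells too, with 377 CPM in NK cell-like cells labelled liver and 233 in T cell-like cells labelled spleen, the latter overlapping with macrophage-like cells at 252 CPM.

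Cxcr3 and Cxcr6 had their highest level in NK cell-like cells of the liver-labelled library, at 76.3 and 104 CPM, above T cell-like cells at 29.2 and 16.5 CPM. No cluster of the spleen-labelled library was called NK cell-like, and there T cell-like cells led the named classes with 159.7 and 219 CPM. Of the 981 Cxcr6 UMIs of that library, 63.1% were in unnamed cells and 26.4% in T cell-like cells. Cx3cr1 was at 66.0 CPM in monocyte-like and 61.2 in NK cell-like cells labelled liver, whose intervals overlapped, and at 175 CPM in macrophage-like and 67.1 in monocyte-like cells labelled spleen. Ccrl2 was at 20.4, 15.8 and 13.2 CPM in liver-labelled NK cell-like, monocyte-like and neutrophil-like cells, a set of neighbours that overlapped, and at 246, 216 and 124 CPM in spleen-labelled neutrophil-like, monocyte-like and macrophage-like cells. Ccr7 was at 260.5 CPM in T cell-like, 117 (89.8 to 149, from 63 UMIs) in macrophage-like and 76.0 in B cell-like cells labelled liver, and at 62.5 and 88.3 CPM, with overlapping intervals, in T cell-like and B cell-like cells labelled spleen.

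A RefSeq promoter sequence (GRCm38.p6) was matched for 8 of the 10 receptors, all but Ccr7 and Cxcr5. The promoters of the 3 receptors that the neutrophil results below turn on are shown, each as the 250 bases before the listed start site, 5′ to 3′ on the gene's strand. Capitals mark GAGGAA or its reverse complement TTCCTC, a core of the kind bound by the myeloid factor PU.1.

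Cxcr2 (chr1:74153744-74153993, plus strand): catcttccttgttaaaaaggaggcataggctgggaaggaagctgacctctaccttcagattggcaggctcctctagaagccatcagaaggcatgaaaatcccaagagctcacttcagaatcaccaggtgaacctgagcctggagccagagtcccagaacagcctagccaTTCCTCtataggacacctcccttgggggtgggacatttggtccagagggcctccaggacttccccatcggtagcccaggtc
Ccr1 (chr9:123968693-123968942, minus strand): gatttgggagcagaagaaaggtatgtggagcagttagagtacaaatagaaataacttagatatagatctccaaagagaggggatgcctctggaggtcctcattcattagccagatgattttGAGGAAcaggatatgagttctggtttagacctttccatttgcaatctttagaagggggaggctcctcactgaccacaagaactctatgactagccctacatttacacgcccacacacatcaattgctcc
Ccrl2, first of 3 listed starts (chr9:111057519-111057768, minus strand): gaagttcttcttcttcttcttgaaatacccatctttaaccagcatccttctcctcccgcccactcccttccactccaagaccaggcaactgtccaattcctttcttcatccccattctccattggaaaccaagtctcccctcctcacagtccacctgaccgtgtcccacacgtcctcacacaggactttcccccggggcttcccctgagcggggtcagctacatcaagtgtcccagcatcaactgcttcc

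The motif GAGGAA, searched on both strands, occurred once each in the promoters of Cxcr2, Ccr1 and Cxcr3, and in 23.3% of all 32851 promoters of the table. Neither GGG and TTCC with 3 bases between them, a form of the NF-kB site found in 4.65% of all promoters, nor TTGCNNAA, a form of the C/EBP site found in 9.56%, occurred in the window of any of the 8 receptors. Other forms of these sites were not searched, so a window without these letters can still hold another form. These letters are a description of the windows and show no binding. In the annotation (GENCODE M21 on GRCm38), 6 of the 10 receptor genes lie on chromosome 9, among them Cxcr6 (chr9:123806475-123811760), Ccr1 (chr9:123962124-123968692) and Ccr2 (chr9:124101950-124113557). Cxcr6 lies 150364 bp from Ccr1, and Ccr1 lies 133258 bp from Ccr2. The named classes with their highest levels in the liver-labelled library differed all the same, being NK cell-like for Cxcr6, neutrophil-like for Ccr1 and monocyte-like for Ccr2.

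Cxcr2 and Ccr1 were the leading receptors of neutrophil-like cells. Cxcr2, which binds the neutrophil attractants of the Cxcl1 and Cxcl2 family, was at 617 CPM in vehicle, 722 in low dose and 532 in high dose cells of the liver-labelled library (6759, 7621 and 2101 UMIs). Within the spleen-labelled library it was at 309.5, 423 and 287 CPM (914, 1663 and 660 UMIs). The low dose was the highest group in both libraries. The log2 ratio of low dose to vehicle was 0.23 (95% interval 0.18 to 0.27) in the liver-labelled library and 0.45 (0.33 to 0.57) in the spleen-labelled library. The ratio of high dose to vehicle was -0.21 (-0.29 to -0.14) and -0.11 (-0.25 to 0.04), so the second spanned 0. The median ratio over all genes tested in these cells was -0.21 and 0.02, so the liver-labelled Cxcr2 ratio stood at the level of the median gene. When the CPM of every cell was averaged, in place of summing UMIs, the high dose ratio was -0.67 and -0.54.

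Ccr1, a receptor for Ccl3, Ccl5 and Ccl9, was at 367.5, 355 and 324 CPM in the vehicle, low dose and high dose neutrophil-like cells of the liver-labelled library. It was at 322, 375 and 259.5 CPM in the spleen-labelled library. High dose was the lowest group in both, with ratios of -0.18 (-0.27 to -0.09) and -0.31 (-0.46 to -0.16), or -0.60 and -0.83 as a mean over cells. With a median ratio over all genes tested of -0.21 and 0.02, the liver-labelled Ccr1 ratio stood near that of the median gene. Low dose stood close to vehicle in the liver-labelled library, at -0.05 (-0.11 to 0.01), and above it in the spleen-labelled library, at 0.22 (0.10 to 0.34).

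Ccrl2 is an atypical receptor that binds chemerin and presents it to other cells without signalling itself. In neutrophil-like cells of the liver-labelled library it was at 20.4 CPM in vehicle, 10.1 in low dose and 1.52 in high dose cells (223, 107 and 6 UMIs). For the spleen-labelled library it was at 279.7, 342 and 38.3 CPM (826, 1346 and 88 UMIs). The high dose group was the lowest in both, with ratios of -3.74 (-5.21 to -2.60) and -2.87 (-3.20 to -2.55). The low dose ratio was -1.01 (-1.35 to -0.67) in the liver-labelled library and 0.29 (0.17 to 0.42) in the spleen-labelled library, with opposite signs. At a clustering resolution of 1.6 the high dose ratio of the spleen-labelled library was -2.07.

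Cxcr4, the receptor for Cxcl12 that retains cells in the marrow, was low in neutrophil-like cells, at 19.7, 23.2 and 9.36 CPM in the liver-labelled library and at 20.7, 20.6 and 15.7 CPM in the spleen-labelled library. High dose was lower than vehicle in the liver-labelled library, with a ratio of -1.07 (-1.62 to -0.57). In the spleen-labelled library that ratio spanned 0, at -0.40 (-1.03 to 0.22), as did both low dose ratios, at 0.24 (-0.03 to 0.51) and 0.00 (-0.50 to 0.50). Mean over cells gave -2.29 and -1.40 for the high dose. Ccr2 was a minor receptor of these cells, at 11, 5.69 and 3.04 CPM in the liver-labelled library and 13.9, 8.39 and 12.2 CPM in the spleen-labelled library.

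Of the 10 receptors, 5 (Cxcr2, Cxcr4, Ccr1, Ccr2 and Ccrl2) had the 50 UMIs over both groups that were required for a count of genes past 2-fold among neutrophil-like cells. The high dose sum was the smaller one, and in the liver-labelled library Cxcr4, Ccr2 and Ccrl2 passed mainly through vehicle (216, 121 and 223 UMIs, against 37, 12 and 6), so the requirement favours genes that are lower at the high dose and nothing is read from the count. With the high dose, 3 of the 5 were past 2-fold lower in the liver-labelled library (Cxcr4, Ccr2 and Ccrl2), where 7.55% of 7110 genes were past 2-fold, 497 of them lower, and the median over all genes was -0.21. Among spleen-labelled cells 1 of the 5 was (Ccrl2), against 3.29% of 5351 genes. At the low dose, 1 of the 5 was past 2-fold in the liver-labelled library (Ccrl2, lower), against 1.00% of 7862 genes, and 0 of the 5 in the spleen-labelled library, against 2.56% of 5968 genes.

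The number of neutrophil-like cells and their UMIs per cell differed between the groups. Their share in vehicle, low dose and high dose was 34.3%, 34.9% and 9.26% for the liver-labelled library (1064, 1115 and 198 cells) and 43.9%, 47.8% and 17.8% in the spleen-labelled library (361, 622 and 154 cells). Their median UMIs per cell were 6367, 6989 and 18598 in the first and 4913, 4267.5 and 14051 in the second, so the high dose cells had the most UMIs each. The summed level of the granule list (Camp, Ngp, Ltf, Chil3, Cebpe and Mmp8, made during maturation in the marrow) was 31084, 30014 and 25573 CPM and 34394.5, 27662 and 33410.1 CPM. The late list (Il1b, Ptgs2, Srgn, Csf3r, Ccl6 and Cd84, of mature neutrophils) was at 2545, 3145 and 1609 CPM and at 3617, 5832 and 1802 CPM, lowest at the high dose in both. The part of cell number, UMIs per cell and stage in the receptor levels was not tested.

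Receptor levels spanned a wider range over the clusters of neutrophil-like cells than over the groups. Within the liver-labelled library, Cxcr2 was at 214 CPM in cluster 11, which had the highest granule list (69616 CPM), at 478 in cluster 4, 688 in cluster 8, 1156 in cluster 6 and 1436 in cluster 2, which had a granule list of 1147 CPM. For the spleen-labelled library it was at 65.6 CPM in cluster 11, 258 in cluster 8, 417 in cluster 3, 544 in cluster 13, 514 in cluster 16 and 899 in cluster 0. Clusters with less granule RNA had more Cxcr2, with cluster 16 below cluster 13 and cluster 0 as the exception to the order. Ccr1 went from 186 CPM in cluster 11 to 608 in cluster 2 in the liver-labelled library and from 123 in cluster 11 to 861 in cluster 16 in the spleen-labelled library. The highest and the lowest of these clusters, cluster 5 included, differed 7.75-fold and 13.7-fold in Cxcr2, 4.25-fold and 7.01-fold in Ccr1, and 12.3-fold and 18.8-fold in Cxcr4.

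Ccrl2 had the widest range, 135-fold and 177-fold, the first from cluster 4 with 16 UMIs up to cluster 5, which had no type name. In the liver-labelled library it was at 1.6 to 3.73 CPM in clusters 11, 4 and 8 and at 39.6 and 55.5 CPM in clusters 6 and 2. Among spleen-labelled cells it was at 12.6, 43.5 and 38.8 CPM in clusters 11, 8 and 3, at 458 and 1050.1 CPM in clusters 13 and 0, and at 2221 CPM in cluster 16. Cluster 16, small and led by Cxcl3, Hilpda, Bnip3 and Ccrl2 itself, also had the most Cxcr4 among the neutrophil-like clusters of that library (125 CPM).

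Cluster 5 of the liver-labelled library met the rule for no cell type name, and had Saa3, Il1b, Ccrl2 and Csf1 among its leading genes. Set beside the neutrophil-like clusters of that library, its 545 cells (368 vehicle, 177 low dose and 0 high dose) had the highest levels of all 4 receptors. These were 1660.4 CPM for Cxcr2, 790.0 for Ccr1, 122 for Cxcr4 and 217 for Ccrl2, with the lowest granule list (642 CPM). Beyond these clusters, some B cell-like clusters had more Cxcr4. With these cells counted as neutrophil-like, a choice made after seeing the data, the high dose ratios were -0.40 for Cxcr2, -0.33 for Ccr1, -1.55 for Cxcr4 and -4.79 for Ccrl2.

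**Figure D2:**
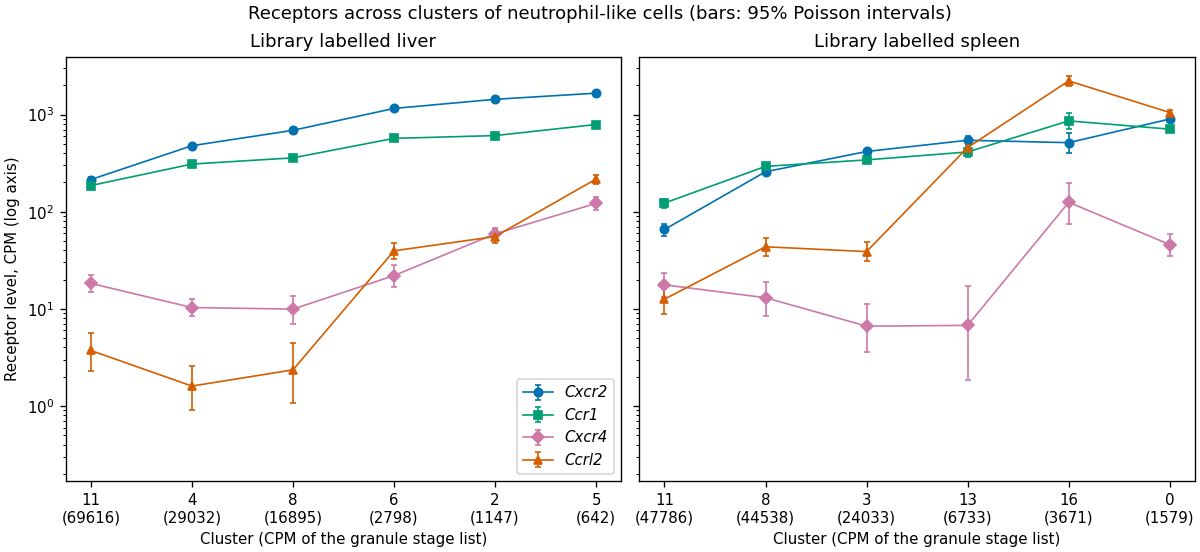
Level of Cxcr2, Ccr1, Cxcr4 and Ccrl2 (CPM, log axis, bars are 95% Poisson intervals) in each cluster of neutrophil-like cells over all groups, with clusters from high to low granule list along the x axis, and cluster 5 unnamed. Cxcr2 went from 214 to 1660.4 CPM in the liver-labelled library, and Ccrl2 from 12.6 to 2221 CPM in the spleen-labelled library.

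The groups were spread unevenly over these clusters. Within the liver-labelled library, cluster 4, rich in granule RNA, held 20.4% of the vehicle, 18.8% of the low dose and 70.7% of the high dose neutrophil-like cells. Cluster 2, with more Cxcr2, held 32.6%, 41.8% and 1.52%. For the spleen-labelled library, cluster 3 held 18.3%, 12.1% and 44.8%, and cluster 0 held 44.6%, 42.6% and 7.14%. Cluster 13 was nearly all low dose, with 0.554%, 19.5% and 1.95% of the cells of each group.

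Within the cluster that held the largest part of the high dose cells, Cxcr2 was higher and not lower in both libraries. In cluster 4 of the liver-labelled library it was at 419 CPM in vehicle and 546 CPM in high dose cells, a ratio of 0.38 (0.28 to 0.48). In cluster 3 of the spleen-labelled library it was at 361 and 488.5 CPM, a ratio of 0.44 (0.20 to 0.68). In both, the high dose cells of the cluster also had less granule RNA, with the list at 31385 and 22356 CPM in cluster 4 and at 28003 and 17174 CPM in cluster 3. The Cxcr2 ratio was thus above 0 in the largest high dose cluster of both libraries. For the whole class it was below 0 in the liver-labelled library, at the level of the median gene, and spanned 0 in the spleen-labelled library. Not every cluster went this way. In cluster 6 of the liver-labelled library Cxcr2 was at 1193 CPM (1142 to 1245) in vehicle and 815 CPM (675 to 976) in 13 high dose cells. In clusters 8 and 11 of that library and 0, 8 and 11 of the spleen-labelled library the high dose level was above vehicle, with overlapping intervals. Ccr1 was at 302 and 335 CPM in cluster 4, a ratio of 0.15 (0.02 to 0.27), and its ratio in cluster 3 was 0.16 (-0.09 to 0.42).

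Ccrl2 could hardly be compared within clusters at the high dose. Cluster 4 held 7 of its UMIs in vehicle and 3 in high dose cells, a ratio of -0.83 with an interval from -3.41 to 1.30. In cluster 3 of the spleen-labelled library it had 29 and 34 UMIs, a ratio of -0.05 (-0.81 to 0.72), and in cluster 11 a ratio of -1.44 (-3.24 to 0.06). In these 3 clusters, which alone had at least 30 cells of both groups, no Ccrl2 ratio left out 0. The clusters rich in Ccrl2 held fewer than 30 high dose cells, so no ratio was taken there. In cluster 0 of the spleen-labelled library Ccrl2 was at 1182 CPM in vehicle and 334 CPM in 11 high dose cells. In cluster 8 of that library it was at 65.5 CPM and, in 29 high dose cells with 5 UMIs, at 11.2 CPM. Neither pair of intervals overlapped. The intervals did overlap in clusters 6, 8 and 11 of the liver-labelled library, with 3, 0 and 0 high dose UMIs. At the low dose Ccrl2 was lower in cluster 2 of the liver-labelled library, at -1.66 (-2.14 to -1.20), and in cluster 5, at -1.35 (-1.78 to -0.94). In cluster 0 of the spleen-labelled library it was at 1182 CPM in vehicle and 1036 CPM in low dose cells, a ratio of -0.19 (-0.34 to -0.04), so the higher low dose level of the whole class had the other sign there.

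The low dose level of Cxcr2 was above vehicle within 4 of the 5 neutrophil-like clusters of the liver-labelled library, at 0.12 in cluster 2, 0.21 in cluster 4, 0.37 in cluster 8 and 0.18 in cluster 11, and the ratio of -0.07 in cluster 6 spanned 0. In the spleen-labelled library every interval of a cluster with at least 30 cells of both groups spanned 0, with a ratio of 0.13 in cluster 0.

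**Figure D3:**
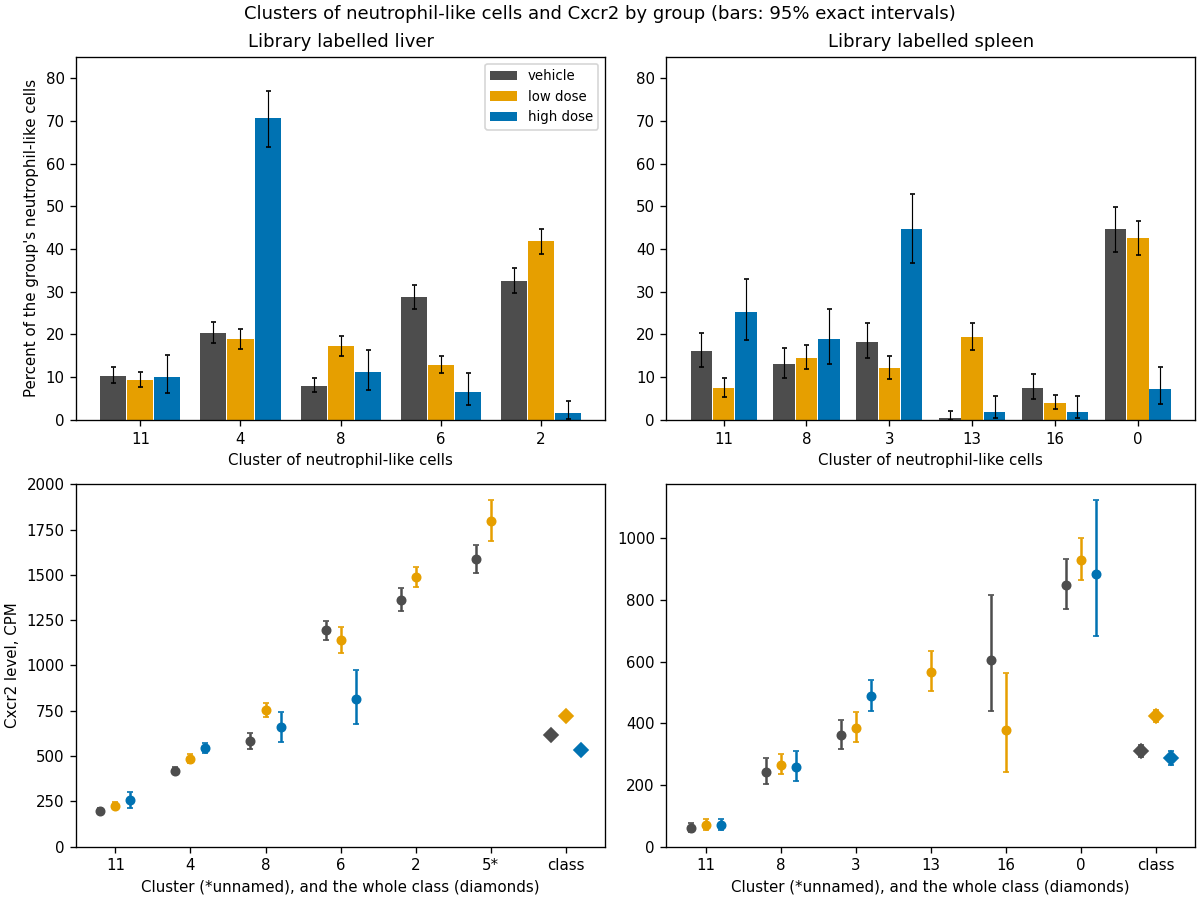
Top panels, percent of each group's neutrophil-like cells in each cluster with exact 95% intervals; bottom panels, Cxcr2 level (CPM) per cluster and group, with diamonds for the whole class, 5* for the unnamed cluster, and no point for sums of under 10 cells. The largest part of the high dose cells was in cluster 4 (70.7%, labelled liver) and cluster 3 (44.8%, labelled spleen), in which their Cxcr2 level was above that of vehicle.

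Shares of cells with a UMI were compared after thinning every cell to 500 UMIs, because depth differed between groups. Cxcr2 was then found in 36.7%, 36.3% and 24.7% of the vehicle, low dose and high dose neutrophil-like cells of the liver-labelled library and in 24.9%, 28.9% and 18.8% of those labelled spleen. Without thinning nearly every such cell of the liver-labelled library had a Cxcr2 UMI (97.8%, 98.0% and 99.5%). B cell-like cells, taken as the class that should lack Cxcr2, had it in 0.189% to 0.545% in the liver-labelled library. Ccr1 was found in 21.7%, 20.3% and 15.2% and in 20.5%, 27% and 13.6%. Ccrl2 was found in 1.88%, 1.61% and 0 of 198 cells, which allows a share of up to 1.52%, and in 20.5%, 21.9% and 7.79%. Cxcr2 and Ccr1 were found together in 9.40% (7.71% to 11.3%) of the thinned vehicle cells labelled liver, and the product of their single shares was 7.96%. Cxcr2 and Ccrl2 were found together in 9% (6.87% to 11.5%) of the thinned low dose cells labelled spleen, where the product was 6.33%. The first interval held the product and the second did not, and for Cxcr2 and Ccrl2 in vehicle cells labelled spleen (6.09%, from 3.86% to 9.08%) it held the product of 5.11%.

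Ccr2 was the receptor with the highest level of any of the 10 in 1 class. Ccr2 binds Ccl2 and Ccl7 and releases monocytes from the marrow. In monocyte-like cells of the liver-labelled library it was at 1330.4 CPM in vehicle, 1248 in low dose and 1079 in high dose cells (2654, 1512 and 580 UMIs from 126, 83 and 24 cells). Among spleen-labelled cells it was at 1497.5, 1129.6 and 1201 CPM (1103, 1042 and 676 UMIs from 72, 79 and 38 cells). Vehicle was the highest group in both libraries. The high dose ratios were -0.30 (-0.43 to -0.17) and -0.32 (-0.46 to -0.18), and the low dose ratios -0.09 (-0.18 to -0.00) and -0.41 (-0.53 to -0.28). At a clustering resolution of 0.4 the high dose ratio of the liver-labelled library was -1.66. Monocyte-like cells formed 1 cluster in each library and made up 4.06%, 2.60% and 1.12% of the groups in the liver-labelled library.

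Cx3cr1, the receptor for the membrane-bound chemokine Cx3cl1 and a feature of patrolling monocytes and tissue macrophages, had another order in the same cells. It was at 51.6, 102 and 37.2 CPM in the liver-labelled library (103, 124 and 20 UMIs) and at 59.7, 94.3 and 32.0 CPM in the spleen-labelled library (44, 87 and 18 UMIs). Low dose was the highest group and high dose the lowest in both. The low dose ratios were 0.99 (0.60 to 1.38) and 0.66 (0.12 to 1.22), and the high dose ratios -0.47 (-1.24 to 0.23) and -0.90 (-1.78 to -0.08). Without the doublets called by Scrublet the first of these was -1.45 (-2.62 to -0.47). Over the 9 alternative settings it went up to 0.06, and 8 of the 9 kept its sign. Ccr1 in monocyte-like cells was at 231, 172 and 285 CPM in the liver-labelled library, with low dose lower (-0.43) and high dose higher (0.30, from 0.03 to 0.57), and at 318, 297 and 314.5 CPM in the spleen-labelled library, where both ratios spanned 0. Ccrl2 in monocyte-like cells was at 12.5, 27.2 and 1.86 CPM (25, 33 and 1 UMIs) in the liver-labelled library, and the high dose ratio was -2.75 (-8.11 to -0.14). Within the spleen-labelled library it was at 244, 234 and 147.5 CPM, with high dose lower at -0.73 (-1.12 to -0.35).

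Macrophage-like cells of the spleen-labelled library (67, 117 and 125 cells) carried the main Cx3cr1 signal of that library. Cx3cr1 was at 229.6, 122 and 189 CPM in vehicle, low dose and high dose cells, with ratios of -0.91 (-1.21 to -0.60) and -0.28 (-0.53 to -0.02). The low dose was thus the lowest group here and the highest in monocyte-like cells. Ccr2 was at 396.5, 273 and 188 CPM, with ratios of -0.54 and -1.08 (-1.29 to -0.86). Ccrl2 was at 169, 172 and 78.0 CPM, with a low dose ratio of 0.02 that spanned 0 and a high dose ratio of -1.12 (-1.45 to -0.79). Ccr1 was at 279, 228 and 232 CPM, with ratios of -0.29 and -0.27. The class held cluster 2, led by Arg1 and Ccl8, and cluster 14, led by Marco and Clec4f, which had 13, 30 and 40 cells of the 3 groups. Within cluster 2 alone the high dose ratio was -0.80 for Ccr2 and -0.91 for Ccrl2, while those of Cx3cr1 (-0.03) and Ccr1 (0.00) spanned 0. The low dose ratio of Cx3cr1 there was -0.87.

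For a count over all 10 receptors, each was taken in 1 assigned class, neutrophil-like for Cxcr2, Ccr1, Cxcr4 and Ccrl2, monocyte-like for Ccr2 and Cx3cr1, T cell-like for Ccr7, Cxcr3 and Cxcr6, and B cell-like for Cxcr5. At the high dose, 3 of the 10 were higher (Cxcr3, Cxcr6 and Cxcr5), 5 lower (Cxcr2, Cxcr4, Ccr1, Ccrl2 and Ccr2) and 2 spanned 0 (Ccr7 and Cx3cr1) among liver-labelled cells. By the same rule 37.6% of the genes tested in neutrophil-like, 16.1% in monocyte-like, 14.6% in T cell-like and 15.2% in B cell-like cells were higher or lower. Spleen-labelled cells gave 0 higher, 5 lower (Ccr7, Ccr1, Ccrl2, Ccr2 and Cx3cr1) and 5 that spanned 0, against 22.3% of genes in neutrophil-like, 21.7% in monocyte-like and 21.0% in T cell-like cells, while Cxcr5 had too few UMIs for such a share. Receptors with many UMIs have narrow intervals, so a call here says less about size than the ratio does.

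At the low dose, 4 receptors were higher (Ccr7, Cxcr6, Cxcr2 and Cx3cr1) and 2 lower (Ccrl2 and Ccr2) in the first library, against 23.7% of genes in neutrophil-like, 18.1% in monocyte-like, 10.6% in T cell-like and 15.9% in B cell-like cells. In the second, 5 were higher (Cxcr6, Cxcr2, Ccr1, Ccrl2 and Cx3cr1) and 2 lower (Ccr7 and Ccr2), against 27.8%, 18.2% and 22.7% in neutrophil-like, monocyte-like and T cell-like cells. In their assigned classes Cxcr6, Cxcr2 and Cx3cr1 were higher and Ccr2 lower in both libraries. Other classes could differ. Cx3cr1 was at 229.6 CPM in vehicle and 122 in low dose macrophage-like cells labelled spleen. Cxcr6 was at 198 and 47.6 CPM in NK cell-like cells labelled liver. The low dose and high dose comparisons of a library share its vehicle cells.

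**Figure D4:**
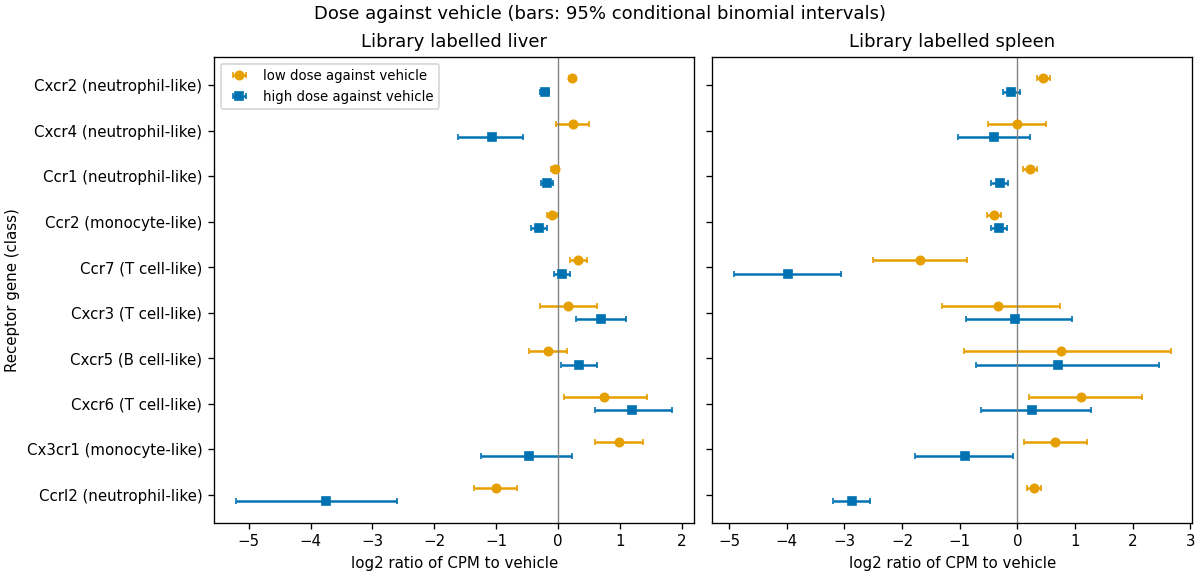
Log2 ratio of the level at low dose and at high dose to vehicle for each of the 10 receptors in its assigned cell class, for both libraries, with exact conditional binomial 95% intervals that cover counting error only. At the high dose Ccrl2 was lowest in the liver-labelled library (-3.74) and Ccr7 in the spleen-labelled library (-3.98).

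Ccr7 was the main receptor of T cell-like cells in the liver-labelled library. Ccr7 binds Ccl19 and Ccl21 and brings naive T cells and mature dendritic cells to lymph nodes. It was at 236, 297 and 247 CPM in vehicle, low dose and high dose cells (721, 1269 and 1449 UMIs from 589, 850 and 1012 cells). Low dose was higher than vehicle at 0.33 (0.20 to 0.46), and high dose spanned 0 at 0.06 (-0.07 to 0.19). The 4 T cell-like clusters separated Ccr7 from Cxcr3, Cxcr6 and Ccr2. Ccr7 was at 322.5 CPM in cluster 0, led by the naive genes Lef1 and Tcf7, at 283 in cluster 3, where Cd8a was at 388.5 CPM, at 102 in cluster 7, where Foxp3 was at 147 CPM, and at 24.8 in the dividing cluster 21.

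Cxcr3, which binds the interferon-induced chemokines Cxcl9 and Cxcl10, took the other order, with 0.457, 24.3, 96.0 and 128 CPM in clusters 0, 3, 7 and 21. Ccr2 was at 2.59, 6.73, 147 and 131 CPM and Cxcr6, the receptor for Cxcl16, at 1.07, 19.9, 52.4 and 37.1 CPM in the same order. Cluster 7, rich in the regulatory T cell gene Foxp3, thus held Cxcr3, Ccr2 and Cxcr6 beside a lower Ccr7 level, and it also had Cxcr5 at 15.7 CPM (32 UMIs) against 0.152 CPM in cluster 0. The effector list (Gzmb, Gzmk, Nkg7, Ccl5, Ifng, Id2 and S100a4) was at 126, 982, 1355 and 1947 CPM. Splitting the cells by their own UMIs gave a like picture for Ccr7, Cxcr3 and Ccr2 but not for Cxcr6. The 162 cells with Foxp3 had Ccr7 at 95.7, Cxcr3 at 91.2 and Ccr2 at 160 CPM, with 0 UMIs of Cxcr6, which allows up to 3.38 CPM, although cluster 7 as a whole had it at 52.4 CPM. The 661 cells with Cd8a or Cd8b1 had them at 278, 22.7 and 9.63 CPM, and the 781 cells with Cd4 at 259, 35.5 and 31.4 CPM. After thinning to 500 UMIs, 0 T cell-like cells had a UMI of both Ccr7 and Cxcr3 in any group of either library. In vehicle cells labelled liver, 0 of 589 allows a share of up to 0.509%, above the product of the single shares (0.140%), so a lack of such cells could not be detected at this depth.

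Cxcr3 and Cxcr6 were higher in high dose T cell-like cells of the liver-labelled library. Cxcr3 was at 22.3, 25 and 35.9 CPM in vehicle, low dose and high dose cells (68, 107 and 211 UMIs), with ratios of 0.17 (-0.29 to 0.63) and 0.69 (0.29 to 1.11). Cxcr6 was at 9.18, 15.4 and 21.1 CPM (28, 66 and 124 UMIs), with ratios of 0.75 (0.09 to 1.44) and 1.20 (0.60 to 1.85). The high dose ratio of Cxcr3 spanned 0 at a clustering resolution of 0.4 (0.21) and with a filter on cells (0.18), and that of Cxcr6 at a resolution of 1.6 (0.40). Ccr2 was at 26.6, 35.3 and 35.1 CPM, with ratios of 0.41 (0.01 to 0.82) and 0.40 (0.02 to 0.79). Cxcr4 was at 66.5, 38.6 and 61.0 CPM, lower at the low dose (-0.79, from -1.09 to -0.48) and spanning 0 at the high dose (-0.13). Of the 5 receptors with 50 UMIs over both groups (Cxcr4, Ccr2, Ccr7, Cxcr3 and Cxcr6), 1 was past 2-fold at the high dose (Cxcr6, higher), against 1.47% of 8546 genes.

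The Foxp3-rich cluster 7 was 12.7%, 15.6% and 20.1% of the T cell-like cells of the 3 groups, and the naive cluster 0 was 60.1%, 56.8% and 54.7%. Within cluster 7, Cxcr3 was at 98.3, 110.2 and 88.0 CPM and Ccr2 at 152, 166 and 136 CPM, and all 4 of these ratios spanned 0. Cxcr6 stayed higher within cluster 7, at 19.7, 75.2 and 51.2 CPM (7, 43 and 57 UMIs), with ratios of 1.94 (0.77 to 3.33) and 1.38 (0.25 to 2.76). T cell-like cells with a Foxp3 UMI had 0 UMIs of Cxcr6, so these Cxcr6 UMIs lay in cells without one. Ccr7 was higher in both dose groups within cluster 0, at 282.5, 347 and 327 CPM, with ratios of 0.30 and 0.21 (0.05 to 0.38). Cxcr4 was lower at the low dose in clusters 0, 3 and 7, at -0.80, -0.71 and -1.08. The effector list over the whole class was at 741, 585 and 688 CPM in the 3 groups. The share of T cell-like cells in the groups was 19%, 26.6% and 47.3%.

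**Figure D5:**
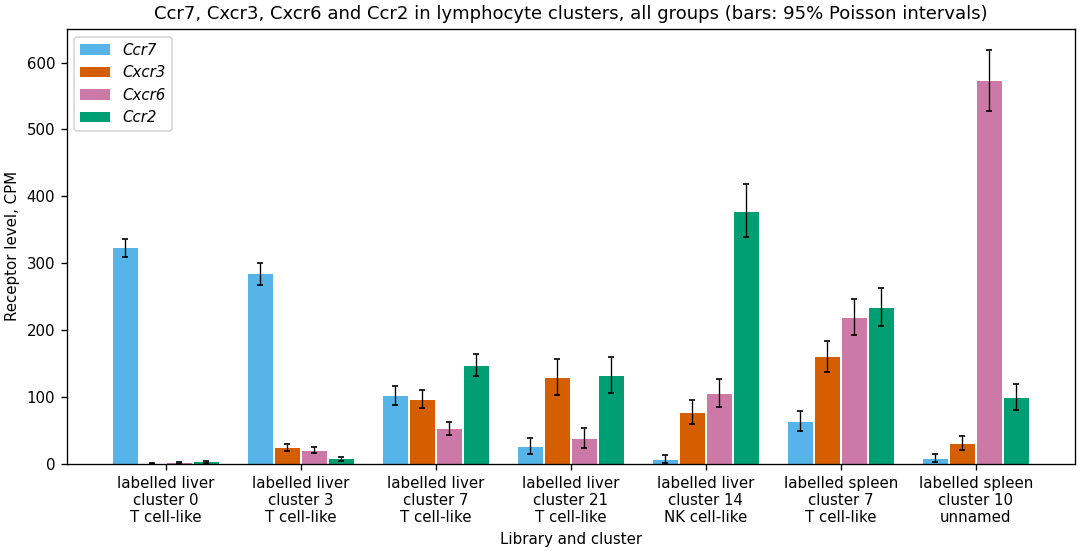
Level (CPM) of Ccr7, Cxcr3, Cxcr6 and Ccr2 over all groups in T cell-like clusters 0, 3, 7 and 21 and NK cell-like cluster 14 of the liver-labelled library, and in T cell-like cluster 7 and unnamed cluster 10 of the spleen-labelled library. Ccr7 led in clusters 0 and 3 (322.5 and 283 CPM), Ccr2 in clusters 7, 21 and 14, and Cxcr6 in cluster 10 (572 CPM).

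NK cell-like cells of the liver-labelled library (cluster 14; 43, 81 and 87 cells) had Ccr2 as their leading receptor, at 417, 342 and 387 CPM in vehicle, low dose and high dose cells, and both ratios spanned 0. Cxcr6 was at 198, 47.6 and 108 CPM (37, 16 and 44 UMIs), lower in both dose groups at -2.06 (-3.00 to -1.17) and -0.87 (-1.54 to -0.20). In T cell-like cells of the same library Cxcr6 had the other direction. Cx3cr1 was at 96.2, 17.9 and 80.9 CPM (18, 6 and 33 UMIs), lower at the low dose (-2.43), with a high dose ratio of -0.25 that spanned 0. Cxcr3 was at 85.5, 62.5 and 83.4 CPM, and both ratios spanned 0.

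The T cell-like cells of the spleen-labelled library were few (24, 63 and 91 cells) and formed 1 cluster, in which the NK cell gene Ncr1 and the granzyme gene Gzmc were among the leading genes. Ccr7 was at 355.5, 110.0 and 22.6 CPM in vehicle, low dose and high dose cells (25, 30 and 19 UMIs), with ratios of -1.69 (-2.51 to -0.87) and -3.98 (-4.92 to -3.06). The median high dose ratio over all genes tested in these cells was 0.28, and Ccr7 itself had too few UMIs to be among them. With the 2 other hashtag callers the high dose ratio was -1.76 and -1.59. Both dose groups were lower, whereas low dose was higher in the liver-labelled library, whose T cell-like class was of another make-up. Cxcr3 was at 171, 136 and 166.5 CPM, and both ratios spanned 0. Cxcr6 was at 156, 337 and 186 CPM (11, 92 and 156 UMIs), higher at the low dose (1.11, from 0.20 to 2.16). Ccr2 was at 42.7, 227 and 251 CPM, from only 3 UMIs in vehicle, with ratios of 2.41 (0.80 to 4.73) and 2.56 (0.99 to 4.85). Cxcr4 was at 99.5, 62.4 and 14.3 CPM (7, 17 and 12 UMIs), lower at the high dose (-2.80). The effector list in these cells was at 5559.9, 5227 and 4781 CPM.

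Unnamed cluster 10 of that library (157 cells) had Ccl5, Cd8a, Gzma, Prf1 and Pdcd1 among its leading genes and held most of the Cxcr6 there, at 555, 476 and 643 CPM in the 3 groups (87, 177 and 348 UMIs). Its Ccr7 level over all groups was 7.48 CPM and its Cxcr3 level 29.9 CPM. With cluster 10 counted as T cell-like, a choice made after seeing the data, the high dose ratio was -2.55 for Ccr7, 0.95 for Cxcr3 and -0.24, spanning 0, for Cxcr6.

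Thinned to 500 UMIs, 13.8%, 13.4% and 12.9% of the vehicle, low dose and high dose T cell-like cells labelled liver had a Ccr7 UMI, which did not follow the levels, and neutrophil-like cells gave a background of 0% to 0.0940%. Cxcr6 was found in only 3, 6 and 12 of them (0.509%, 0.706% and 1.19%, with overlapping intervals), and in 1 of 1064 vehicle neutrophil-like cells, so no order is read from these shares either. In spleen-labelled T cell-like cells Ccr7 was found in 8.33% of 24, 9.52% of 63 and 1.10% of 91 cells, too few to read an order. For Ccr2 in monocyte-like cells the shares of 40.5%, 47% and 41.7% labelled liver did not follow the levels either. No order is read from any of these shares, whether or not they followed the levels.

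Cxcr5, which guides B cells to Cxcl13 in follicles, was mostly in B cell-like cells, which held 85.1% of its UMIs in the liver-labelled library and 70.4% in the spleen-labelled library. Over all groups of the former it was at 95.5 CPM in B cell-like cells, 2.95 in T cell-like and 1.45 in neutrophil-like cells. In B cell-like cells it was at 91.5, 81.9 and 116 CPM in vehicle, low dose and high dose cells (193, 158 and 197 UMIs). High dose was higher at 0.34 (0.05 to 0.64), and low dose spanned 0 at -0.16 (-0.47 to 0.15). Within cluster 1, which held most of these cells, the high dose ratio spanned 0 at 0.27 (-0.03 to 0.57). For the spleen-labelled library it rested on 5, 10 and 23 UMIs (46.1, 78.0 and 74.9 CPM), and both ratios spanned 0.

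Cxcr4 had its highest level in B cell-like cells among classes of over 100 cells, at 134, 120.3 and 107 CPM in the liver-labelled library (283, 232 and 181 UMIs) and at 119.8, 289 and 114 CPM in the spleen-labelled library (13, 37 and 35 UMIs). In the liver-labelled library high dose was lower, at -0.33 (-0.61 to -0.06). Within cluster 1 it was the low dose that was lower, at -0.71 (-1.07 to -0.36), and the high dose ratio was -0.13 and spanned 0. Among spleen-labelled cells low dose was higher, at 1.27 (0.32 to 2.30). Cxcr4 and Cxcr5 parted within B cell-like cells. Cluster 20, 55 of whose 56 cells were vehicle and which had the precursor gene Vpreb1 at 886 CPM, had Cxcr4 at 320.2 CPM (60 UMIs) and 0 UMIs of Cxcr5, which in its vehicle cells allows a level of up to 16.2 CPM. Cluster 18, in which 140 of 144 cells were low dose, had Cxcr4 at 248 and Cxcr5 at 62.0 CPM. Ccr7 in B cell-like cells was at 77.8, 81.4 and 67.7 CPM in the liver-labelled library, and both ratios spanned 0.

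The other genes of the pathway were counted by lists among neutrophil-like cells. Of the receptor signalling genes, which include the G protein Gnai2, the kinase Grk2 and the Rac activator Dock2, 0 of 17 were past 2-fold at the high dose in either library, with medians of 0.04 and 0.09, and all genes had a median of -0.21 in the liver-labelled library. At the low dose 0 of 17 and 1 of 18 were, against 1.00% and 2.56% of all genes. Of the chemokine ligands with enough UMIs, 5 of 7 and 3 of 6 were past 2-fold lower at the high dose, with medians of -1.74 and -0.94. Of all genes in these cells 7.55% and 3.29% were past 2-fold in either direction, and the same requirement on UMIs applied. At the low dose 2 of 7 ligands were past 2-fold lower in the liver-labelled library (median -0.62), against 1.00% of all genes. Of 8 in the spleen-labelled library 2 were higher and 1 lower (median 0.45), against 2.56% of all genes. The ligands lower at the high dose in both libraries were Ccl3 (-2.53 and -1.79) and Ccl4 (-1.74 and -1.29), both chemokine ligands, and Cxcl2 (-1.27 and -1.72), a ligand of Cxcr2. Cxcl2 was at 126 CPM in vehicle and 52.1 in high dose cells of the liver-labelled library and at 3214 and 975 CPM in the spleen-labelled library. From the late list, Il1b, the interleukin released by inflamed myeloid cells, was lower at the high dose (-1.49 and -2.00) and higher at the low dose (1.18 and 1.13), and Cd84 was lower at the high dose (-1.43 and -1.24). Of the 15 other receptors only Cxcr1, a close relative of Cxcr2, could be counted. It was lower at the high dose in the liver-labelled library, at -1.99 (-2.80 to -1.27, 187 and 17 UMIs), and its ratio of -0.79 in the spleen-labelled library spanned 0.

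In T cell-like cells of the liver-labelled library at the high dose, 0 of 17 signalling genes were past 2-fold, with a median of -0.04. Of all 8546 genes tested there 1.47% were, so nothing is read from this count. The ligand Ccl5 was lower, at 212 CPM in vehicle and 81.1 in high dose cells (-1.39).

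Classes of the same name were also set side by side between the libraries. In vehicle neutrophil-like cells the level in the spleen-labelled library was 13.7 times that in the liver-labelled library for Ccrl2, 0.502 times for Cxcr2, 0.875 times for Ccr1 and 1.05 times for Cxcr4. The Ccrl2 gap was 33.8 times in low dose and 25.2 times in high dose cells, and the Cxcr2 ratio 0.586 and 0.541, so both kept their direction in every group. The 2 neutrophil-like classes were not alike in make-up. The class labelled spleen holds cluster 11, with Elane and Fcnb among its leading genes and, in vehicle cells, Cxcr2 at 59.5 and Ccr1 at 107 CPM. Liver-labelled granulocyte progenitor-like cells, led by Elane, formed a class of their own. No ratio was taken without cluster 11, so no direction between like cells is read for Cxcr2 or Ccr1. The neutrophil-like class labelled liver leaves out the unnamed cluster 5, which was rich in these receptors and held 0 high dose cells. With cluster 5 counted in, a choice made after seeing the data, the spleen-labelled level of Ccrl2 was 6.64 times that of the liver-labelled library in vehicle and 23.0 times in low dose cells, and in vehicle cells that of Cxcr2 was 0.442 times, of Ccr1 0.791 times and of Cxcr4 0.755 times, so that Cxcr4 was then lower (-0.41, from -0.83 to -0.01) in place of spanning 0. In monocyte-like cells Ccr2 stayed within 0.905 to 1.13 times in all 3 groups, while Ccrl2 was 19.5 times higher in vehicle cells. T cell-like cells were not compared in this way, because those labelled spleen had Ncr1 and Gzmc among their leading genes and a higher effector list, while liver-labelled NK cell-like cells formed a class of their own. Tissue, cell preparation and library cannot be told apart in these differences.

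Levels summed over all cells of a group also depend on its mix of cell types. Within the liver-labelled library Cxcr2 was at 336 CPM in vehicle and 138 in high dose cells (-1.28), Ccr1 at 225 and 100.2 (-1.17), Ccr2 at 162 and 66.5 (-1.29) and Ccrl2 at 22.3 and 2.60 (-3.10). Ccr7 was at 36.9 and 94.6 CPM (1.36), Cxcr3 at 4.75 and 15.4 (1.70), Cxcr6 at 2.68 and 10.4 (1.96) and Cxcr5 at 7.92 and 13.7 (0.79). For the spleen-labelled library Cxcr2 was at 134 and 68.5 CPM (-0.97), Ccr2 at 305.5 and 155 (-0.98), Ccrl2 at 172.5 and 40.0 (-2.11), Cxcr3 at 4.21 and 21.9 (2.38) and Cxcr6 at 16.6 and 53.0 (1.68). Ccr7 was lower in the sums of the spleen-labelled library (-0.78), with the other sign from the liver-labelled library. In such sums, fewer cells of a type and a lower level per cell cannot be told apart. Within neutrophil-like cells alone the high dose ratio of Cxcr2 was -0.21 and -0.11.

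The genes most like each receptor were found by Pearson's r of log2(CPM + 10) over 43 sums of class, group and library, among 10638 genes. The sums share libraries and depth, so r is a description. Cxcr2 was nearest to Asprv1 (0.955), Il1f9 (0.952) and Stfa2 (0.945), Ccr1 to Cd33 (0.931), Cd300lf (0.929) and Gda (0.929), and Ccrl2 to Cxcl2 (0.877), Dusp1 (0.850) and Plk3 (0.828). Ccr2 was nearest to Elmo2 (0.866), Glud1 (0.842) and Fam89b (0.831), and Cx3cr1 to Cmklr1 (0.850) and Ccl9 (0.812). Among the lymphocyte receptors, Ccr7 was nearest to Fam169b (0.920), Nxpe3 (0.916) and Gm8369 (0.884), Cxcr3 to Il2rb (0.922) and Cd226 (0.920), Cxcr6 to Il2rb (0.911), Cd160 (0.900) and Cd226 (0.894), and Cxcr5 to Ffar1 (0.986), Pax5 (0.982) and Fcmr (0.980). Cxcr4 was nearest to Map4k1 (0.862), N4bp2 (0.830) and Elmo1 (0.816). Between the receptors themselves, r was 0.899 for Cxcr3 and Cxcr6, 0.760 for Ccr2 and Cx3cr1, 0.730 for Cxcr2 and Ccr1, and lowest at -0.546 for Ccr1 and Ccr7.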

How the data were processed

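Leukocytes of tumor-bearing mice were measured in 2 droplet libraries, each of 3 hashtagged groups of pooled animals. The authors deposited counts, whole UMIs for each gene row, hashtag and barcode; the submitters' processing notes name Cell Ranger 6.0.0, Seurat and mm10, and the matrix headers Cell Ranger 5.0.0. Cells were assigned by HTODemux, normalized with SCTransform and clustered at resolution 0.8 (Seurat 5.3.0, sctransform 0.4.2, R 4.3.3), with the 10 receptors left out of the variable features. Doublets across hashtags (616 and 215 barcodes) were removed, and those within a hashtag were kept; Scrublet (scanpy 1.11.5) marked 248 and 1 barcodes, which left it of little use in the second library. Naming a cluster took at least 3 markers raised by 1 or more on the log2 scale against the rest of its library (10 CPM added), each in at least 20% of its cells.

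UMIs were summed per class or cluster and group and scaled to CPM over all gene UMIs, with exact 95% intervals (scipy 1.17.1). Levels needed 10 cells, ratios within a cluster 30, and counts of genes past 2-fold needed 50 UMIs over both groups. For a count of 0, the limit was 3 counts. Likeness used genes with at least 200 UMIs and sums of at least 30 cells. On simulated counts with 200 genes changed 4-fold, each had the right direction, and the interval held the true ratio for 95.4% of 7074 genes in the liver-labelled library. These counts were drawn with counting error only, as the interval assumes, without spread between cells or animals. They check the computation and say nothing about such spread in the data. Named genes were the 10 receptors, list genes past 2-fold the same way in both libraries, and the 3 genes most like each receptor (some items are not reported here); clusters' leading genes and single list genes beyond these were named after their values were seen. The receptors, lists and comparisons were chosen with earlier results of these data known. Barcodes without a hashtag entered no comparison. Alternatives were other hashtag callers, resolutions, a cell filter, Scrublet, all variable features, a mean over cells and other scalings.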

Additional observations from a re-analysis of the deposited data

Results flagged for a closer look

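The low dose ratio to vehicle had opposite signs in the libraries for 2 receptors, with intervals on opposite sides of 0. Ccr7 in T cell-like cells was at 0.33 (log2) in the liver-labelled library and at -1.69 in the spleen-labelled library, where vehicle had 24 such cells. These 2 T cell-like classes were not alike, since that labelled spleen had Ncr1 and Gzmc among its leading genes and a higher effector list. Ccrl2 in neutrophil-like cells was at -1.01 in the liver-labelled library and at 0.29 in the spleen-labelled library. The difference between the libraries was not tested for either receptor, since each group was 1 pooled sample. In the barcodes of the spleen-labelled library that carried no hashtag call (1627 barcodes), which entered no comparison, Cxcr5 was at 6.64 CPM (95% interval 4.51 to 9.42, 31 UMIs), against 1.40 CPM (0.673 to 2.58, 10 UMIs) in the vehicle cells of that library.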

How the results depend on the processing

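High dose ratios to vehicle were recomputed under 11 alternative settings, which gave 185 values. The value stayed within the counting interval of the reported one in 159 and moved beyond it in 26, and no ratio whose interval left out 0 changed sign. The cause was not tested for any of them. In the liver-labelled library, MULTIseqDemux gave -0.15 for Ccr2; resolution 0.4 gave -0.39 for Cxcr2, -0.33 for Ccr1, -1.66 for Ccr2 and 0.21 for Cxcr3; resolution 1.6 gave 0.40 for Cxcr6; the cell filter (200 genes, under 10% mitochondrial UMIs) gave 0.18 for Cxcr3; and removing Scrublet doublets gave -1.45 for Cx3cr1. There the mean over cells gave -0.67 for Cxcr2, -2.29 for Cxcr4 and -0.60 for Ccr1, and counting cluster 5 as neutrophil-like, chosen after seeing the data, gave -0.40 for Cxcr2 and -0.33 for Ccr1. In the spleen-labelled library, Ccr7 was at -1.76 with MULTIseqDemux, -1.59 with the dominant hashtag, -2.57 with the cell filter, -2.85 as a mean over cells and -2.55 with cluster 10 counted as T cell-like, also chosen after seeing the data. Cxcr3 was at 1.10 with the dominant hashtag and 0.98 with the cell filter, Ccrl2 at -2.07 at resolution 1.6 and -3.24 as a mean over cells, and Cxcr4 at -1.20 with all variable features and -1.40 as a mean over cells, which gave -0.54 for Cxcr2 and -0.83 for Ccr1. Without the 20 most abundant genes, 20 of 20 ratios stayed within their interval. At resolution 0.4 the spleen-labelled library had no monocyte-like cluster, so 18 ratios were computed. Shares of cells moved beyond their interval in 19 of 40 cases when thinned to 1000 UMIs and in 36 of 40 without thinning.

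No paired analysis was possible because each group was 1 pooled sample in each library. Leaving out a replicate was likewise not possible. Depth limited Ccrl2 in the liver-labelled library (6 UMIs at the high dose), Cx3cr1 at the high dose (20 and 18 UMIs), and Cxcr5 and Ccr7 in the spleen-labelled library (5 and 25 UMIs in vehicle).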

Other observations

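Some receptors had a clear level in classes and clusters whose groups are not compared above. The basophil-like cells of the liver-labelled library (24 cells) had Ccr1 at 246, Cxcr4 at 212, Ccr2 at 203 and Cxcr2 at 136 CPM, a higher Cxcr4 level than that of B cell-like cells. The plasmacytoid dendritic cell-like cells of the spleen-labelled library (25 cells) had Ccr2 at 669.9 and Cxcr3 at 135 CPM. The granulocyte progenitor-like cells of the liver-labelled library had Cxcr2 at 92.3 and Ccr1 at 107 CPM, lower than in neutrophil-like cells, and the stem and progenitor-like cells had Ccr2 at 291 and Cxcr4 at 58.8 CPM. Unnamed cluster 5 of the spleen-labelled library (186 cells), with H2-Aa, Ciita and hemoglobin genes among its leading genes, had Ccr2 at 461, Ccr1 at 100.4 and Ccr7 at 85.3 CPM.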
